A study of Arabidopsis thaliana with 6 samples.

Results

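Beside some of the strongest SOC1-GFP binding regions of the Arabidopsis thaliana shoot apex lay 8 loci that are not known flowering genes: AT5G58900, AT5G21280, AT1G58340 (ZF14), AT1G63950, AT5G44590, AT5G06130, AT3G15470 and AT3G17330 (ECT6). They were chosen by the authors' rank of their regions, which rests on the difference between gSOC1-GFP and untagged reads in all 6 libraries, so that difference is described here without a test. Each locus had 1 called region, defined as a region whose false discovery rate (FDR) in the authors' deposited table was below 0.05 in all 3 replicates. These 8 were among 270 called regions of 24032 listed (1.12%), and the 8 loci were among 400 genes with a called region of 22909 genes with a listed region (1.75%). Since the choice used these values, nothing is read from the 8 of 8. The data measured where SOC1-GFP was found on DNA and not whether a gene is expressed or regulated. In whole apices, binding in fewer cells and less binding per cell cannot be told apart.

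In chromatin immunoprecipitation followed by sequencing (ChIP-seq), DNA held by a protein is recovered with an antibody and counted. The gSOC1-GFP group had 3 libraries from line 7, in which a genomic SOC1 copy fused to GFP (mGFP6) was driven by the SOC1 promoter. The untagged gSOC1 group had 3 libraries from line 9, which carried the genomic SOC1 copy from the same promoter without GFP. Both lines were in the soc1-2 mutant background, so each group rests on 1 transgenic line. All plants had 15 short days and then 3 long days, apices were collected at zeitgeber time 4 (4 hours after lights-on), and both genotypes went through an anti-GFP precipitation. Reads in listed regions numbered 183668 to 663108 per gSOC1-GFP library and 41073 to 396326 per untagged library. The tissue label could not be checked against marker genes, since no expression was measured.

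SOC1 is a MADS-domain transcription factor that promotes the change from leaf to flower production at the shoot apex. MADS-domain proteins bind DNA as dimers and often sit in the promoters of other regulators, and SOC1 is best known for its links to other flowering genes. Binding near a gene with no known part in flowering is a common outcome of such maps and does not by itself show regulation. Of the 8 loci the gene table names 2. ECT6 belongs to the plant YTH-domain proteins, which bind methylated adenosines in mRNA. ZF14, also called BCD1 or BUSH-AND-CHLOROTIC-DWARF 1, is a transporter of the multidrug and toxic compound extrusion (MATE) type. The other 6 are protein-coding genes with no name in that table and are called by their identifiers.

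The 8 called regions were similar in length, from 318 to 364 bp with a median of 351 bp, against a median of 338 bp for the 262 other called regions and 212 bp for all listed regions. On chromosome 5 lay 4 of them, on chromosomes 1 and 3 lay 2 each, and chromosomes 2 and 4 had 0. Of all listed regions, chromosomes 1, 2, 3, 4 and 5 held 26.1%, 15.9%, 19.5%, 14.9% and 23.7%. With only 8 regions, nothing is read from these counts. The annotation at the region's centre put 4 up to 1 kb upstream of the locus (129 to 302 bp), 2 in a 5′ UTR exon, 1 in a 3′ UTR exon and 1 downstream. None of the 8 centres fell in a coding exon or an intron. Among the 262 other called regions, 46.9% lay up to 1 kb upstream, 5.73% in a 5′ UTR exon, 4.20% in a 3′ UTR exon, 2.29% in a coding exon, 6.11% in an intron, 9.16% only downstream of a gene and 17.9% from 1 to 3 kb upstream. These shares were not compared by a test, and with shares this low in coding exons and introns, 0 of 8 is near the background. Coordinates below are TAIR10, with starts as deposited.

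The region of ECT6 lay on chromosome 3 from 5920153 to 5920482, 129 bp upstream of the gene, and was rank 13 in the authors' table. It held 629, 252 and 298 reads in gSOC1-GFP replicates 1, 2 and 3, against 8, 1 and 13 reads in untagged replicates 1, 2 and 3. Every gSOC1-GFP count was above every untagged count, and the untagged library of replicate 3 was the highest of its group although it was shallower than that of replicate 1. Log2 enrichment, the log2 difference of scaled reads between the libraries of 1 replicate number, was 4.96, 5.90 and 2.68 (mean 4.51 ± 1.66, SD, n = 3 pairs; 22.8-fold). This was the widest spread of the 8, and the mean was 5.60 without replicate 3 and 3.90 without replicate 2. The same region lay 81 bp downstream of AT3G17340, so its centre stood between the 3′ end of AT3G17340 and the start of ECT6, both on the minus strand. The other 2 listed regions assigned to AT3G17340 were not called and had log2 enrichments of 0.90 ± 1.58 and 0.51 ± 1.12 (SD, n = 3 pairs).

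ZF14 was the single locus whose region lay beyond the 3′ end of the gene, 366 bp downstream, on chromosome 1 from 21655632 to 21655980 (rank 7). It had 741, 307 and 355 reads in the gSOC1-GFP libraries, against 9, 1 and 9 reads in the untagged libraries. Its log2 enrichment was 5.05, 6.18 and 3.44 (mean 4.89 ± 1.38, SD, n = 3 pairs), and 5.78 without replicate 3. The next gene to the right, ZW18, was 7110 bp away and also faced the region with its 3′ end, as ZF14 did. Inside ZF14 itself 2 weaker regions were listed. The region in the 5′ UTR exon had 9, 9 and 6 reads in gSOC1-GFP libraries against 5, 1 and 0 reads in untagged libraries, and the one in an intron had 17, 5 and 20 against 1, 0 and 6. Neither was called, and in both the scaled reads of the groups overlapped.

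In AT5G58900 the called region covered the start of the gene, with its centre in the 5′ UTR exon, on chromosome 5 from 23785097 to 23785460. At rank 3 it was the strongest of the 8, with 947, 380 and 361 reads in the gSOC1-GFP libraries, against 16, 4 and 2 reads in the untagged libraries. The log2 enrichment was 4.64, 4.72 and 5.46 (mean 4.94 ± 0.45, SD, n = 3 pairs; 30.6-fold), and its SD was the second smallest of the 8. By the authors' FDR it held rank 3 in each replicate taken alone. A second region 1289 bp upstream held 63, 27 and 36 reads in gSOC1-GFP libraries against 7, 7 and 6 in untagged libraries, a log2 enrichment of 0.92 ± 0.86 (SD, n = 3 pairs). It passed the FDR in replicate 1 (1.03e-07) and not in replicate 2 (0.257) or 3 (0.0832), at rank 539. Another, 152 bp downstream, had 19, 7 and 8 reads in gSOC1-GFP libraries against 7, 0 and 1 in untagged libraries and was not called. AGL82, a gene of the MADS family to which SOC1 belongs, was the nearest gene on the left, 3562 bp from the centre of the called region and outside the windows.

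The called region of AT5G06130 had its centre in the 5′ UTR exon of transcript AT5G06130.2 and not of AT5G06130.1, on chromosome 5 from 1855705 to 1856068 (rank 11). Its reads were 599, 286 and 262 in the gSOC1-GFP libraries, against 21, 2 and 5 in the untagged libraries. Log2 enrichment was 3.61, 5.23 and 3.81 (mean 4.22 ± 0.88, SD, n = 3 pairs), highest in replicate 2, where the untagged library held only 2 reads. This region had the most neighbours of the 8. It lay 121 bp downstream of SNX1, a sorting nexin that acts in recycling of proteins from endosomes, and 2505 bp upstream of AT5G06125, a tRNA gene. The region listed within SNX1, 2634 bp upstream of AT5G06130, had 4, 6 and 6 reads in gSOC1-GFP libraries and 1, 0 and 1 in untagged libraries. At the other end of AT5G06130 a region in the 3′ UTR exon had a log2 enrichment of -0.17 ± 0.59 (SD, n = 3 pairs), so the called enrichment at this locus was at its 5′ end.

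Besides ECT6, the loci with the centre of the called region up to 1 kb upstream were AT5G21280, AT5G44590 and AT1G63950. The region 228 bp upstream of AT5G21280 (chromosome 5, 7265726 to 7266088, rank 4) had 875, 375 and 329 reads in gSOC1-GFP libraries, against 15, 4 and 6 in untagged libraries. Its log2 enrichment of 4.40 ± 0.44 (SD, n = 3 pairs) had the smallest SD of the 8, with 4.61, 4.70 and 3.89 in the pairs. No other listed region was assigned to AT5G21280, and the next gene, TPR7, was 7262 bp away. AT5G44590 had its region 256 bp upstream (chromosome 5, 17987159 to 17987511, rank 9), with 850, 280 and 247 reads in gSOC1-GFP libraries, against 10, 4 and 4 in untagged libraries. The pairs gave 5.11, 4.28 and 4.02 (mean 4.47 ± 0.57, SD, n = 3 pairs). In scaled reads its gSOC1-GFP replicate 1 was the highest of the group, whereas replicate 2 was the highest at the other 7 regions. A region 512 bp downstream of AT5G44590 had a log2 enrichment of -0.41 ± 0.89 (SD, n = 3 pairs).

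The region 302 bp upstream of AT1G63950 (chromosome 1, 23734536 to 23734853, rank 8) had the highest mean of the 8. Its reads were 735, 272 and 291 in gSOC1-GFP libraries, against 2, 2 and 5 in untagged libraries. Log2 enrichment was 6.76, 5.16 and 3.96 (mean 5.29 ± 1.40, SD, n = 3 pairs; 39.2-fold), and it was 4.50 without replicate 1 and 6.12 without replicate 3. Its untagged reads, 9 in all, were the lowest sum of the 8. In replicate 1 the scaled ratio was 164, with a 95% counting interval of 45.3 to 1359. The same region lay 802 bp downstream of MDAR6, a monodehydroascorbate reductase of the ascorbate recycling pathway. The 2 other regions assigned to MDAR6, 53 bp and 738 bp upstream of it, were not called, at 0.95 ± 1.74 and -0.11 ± 0.25 (SD, n = 3 pairs), and a region 865 bp downstream of AT1G63950 was not called either, at 1.14 ± 0.57.

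AT3G15470 had more untagged reads than each of the other 7 in replicates 1 and 2, and not in replicate 3. Its called region had its centre in the 3′ UTR exon, on chromosome 3 from 5216237 to 5216566 (rank 12), and held 706, 310 and 301 reads in gSOC1-GFP libraries. The untagged libraries held 67, 9 and 7 reads, so untagged replicate 1 alone had more than the 3 untagged libraries together at any other of the 8 regions. Scaled reads of the groups did not overlap, with 1299, 1626 and 1059 RPM (reads per 1000000 of the effective library size) in gSOC1-GFP libraries and 276, 161 and 86.5 RPM in untagged libraries. In untagged replicate 3 ECT6 (160.6 RPM) and ZF14 (111.2 RPM) were higher than AT3G15470. The log2 enrichment of AT3G15470 was 2.22, 3.30 and 3.55 (mean 3.02 ± 0.71, SD, n = 3 pairs; 8.13-fold), and 3.41 without replicate 1. By mean log2 enrichment it came 91st of the 270 called regions, while the authors' rank was 12. The region also lay 140 bp upstream of AT3G15460, closer to that promoter than to the start of AT3G15470. Regions 922 bp and 1992 bp upstream of AT3G15470 had log2 enrichments of 0.21 ± 0.94 and -0.51 ± 1.43 (SD, n = 3 pairs).

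**Figure D1:**
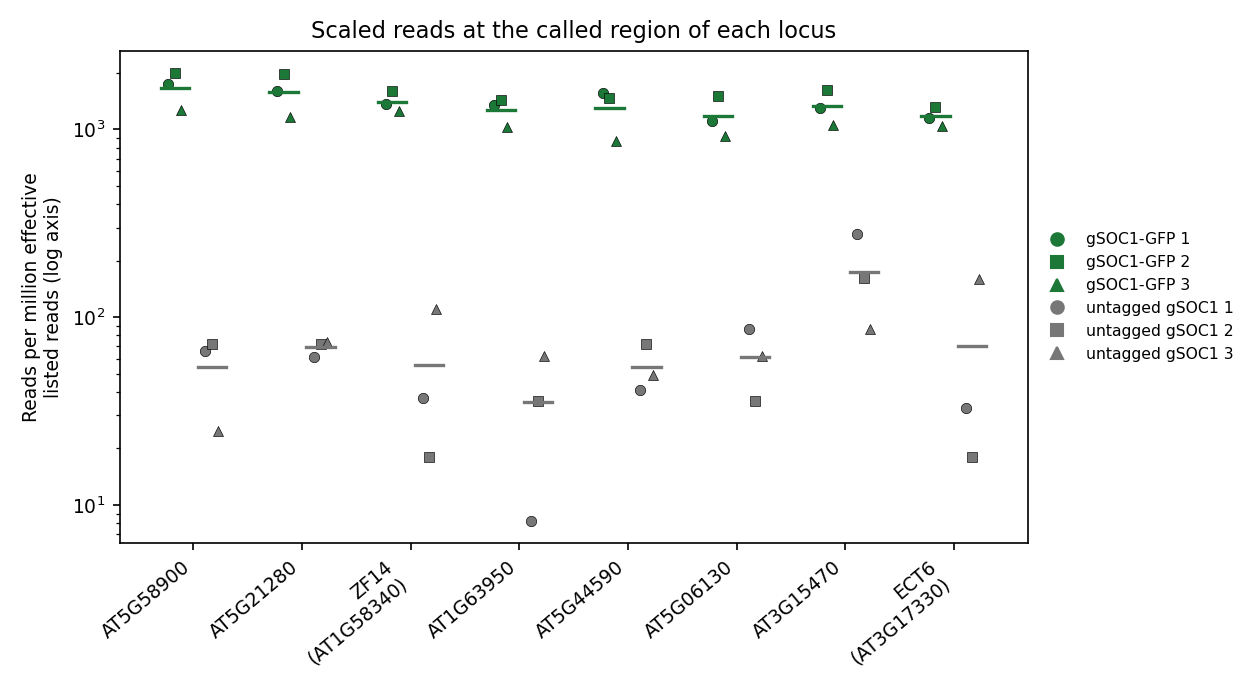
Reads per 1000000 of the effective library size (RPM, log axis) at the called region of each of the 8 loci, for 3 gSOC1-GFP libraries (green, left) and 3 untagged gSOC1 libraries (grey, right); lines mark the group means. The gSOC1-GFP values lie near one another at all 8 loci, above every untagged value, and AT3G15470 has the highest untagged mean, with 86.5 to 276 RPM. These reads chose the loci, so neither the likeness of the gSOC1-GFP values nor their distance from the untagged ones is a test.

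Scaled reads of all 3 gSOC1-GFP libraries were above those of all 3 untagged libraries at 8 of the 8 regions, as at 8.48% of all listed regions. Per kb of region, the gSOC1-GFP level differed little among the loci. The means went from 3228 ± 813 RPM per kb at AT5G06130 to 4585 ± 1008 at AT5G58900 (SD, n = 3 libraries), a ratio of 1.42. In the untagged libraries the means had a ratio of 4.77 between AT3G15470 (529 ± 289 RPM per kb) and AT1G63950 (111 ± 84.2). AT3G15470 set the upper end of the untagged ratio, as the means of the other 7 went from 111 to 214 RPM per kb. Some of these means rest on few reads, such as ECT6 at 214 ± 238. The loci were chosen on the reads of both groups, so the spreads of the groups were not compared. As their authors' ranks were close and rest on these reads, similar gSOC1-GFP levels follow in part from the choice. The median of the 8 was 4006 RPM per kb in gSOC1-GFP libraries, against 647 for the other called regions and 141 for all listed regions. For untagged libraries these medians were 164, 132 and 133, and 7 of the 8 regions were above the median of all listed regions.

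Together the 8 regions took 1.06% ± 0.24 of the listed reads in gSOC1-GFP libraries and 0.0618% ± 0.0227 in untagged libraries (SD, n = 3 libraries each). The single gSOC1-GFP libraries gave 0.917%, 1.34% and 0.930%, and the untagged libraries 0.0373%, 0.0657% and 0.0823%, for replicates 1, 2 and 3. Within the gSOC1-GFP group, replicate 2 had the highest scaled reads at 7 of the 8 regions and replicate 3 the lowest at 8 of 8. Among the 262 other called regions replicate 2 was highest at 51.9% and replicate 3 lowest at 69.8%.

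In order of mean log2 enrichment the loci ran AT1G63950, AT5G58900, ZF14, ECT6, AT5G44590, AT5G21280, AT5G06130 and AT3G15470. Of the 7 steps between neighbours in this order, 6 were smaller than the larger SD of the neighbours. The exception was the step of 1.19 between AT5G06130 and AT3G15470, whose larger SD was 0.88. The median over the 8 was 4.80, 4.94 and 3.85 in replicates 1, 2 and 3, and over all listed regions -0.05, 0.46 and 0.39. Replicate 3 gave the lowest of the 3 pair values at 5 of the 8 loci and replicate 1 at the other 3.

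**Figure D2:**
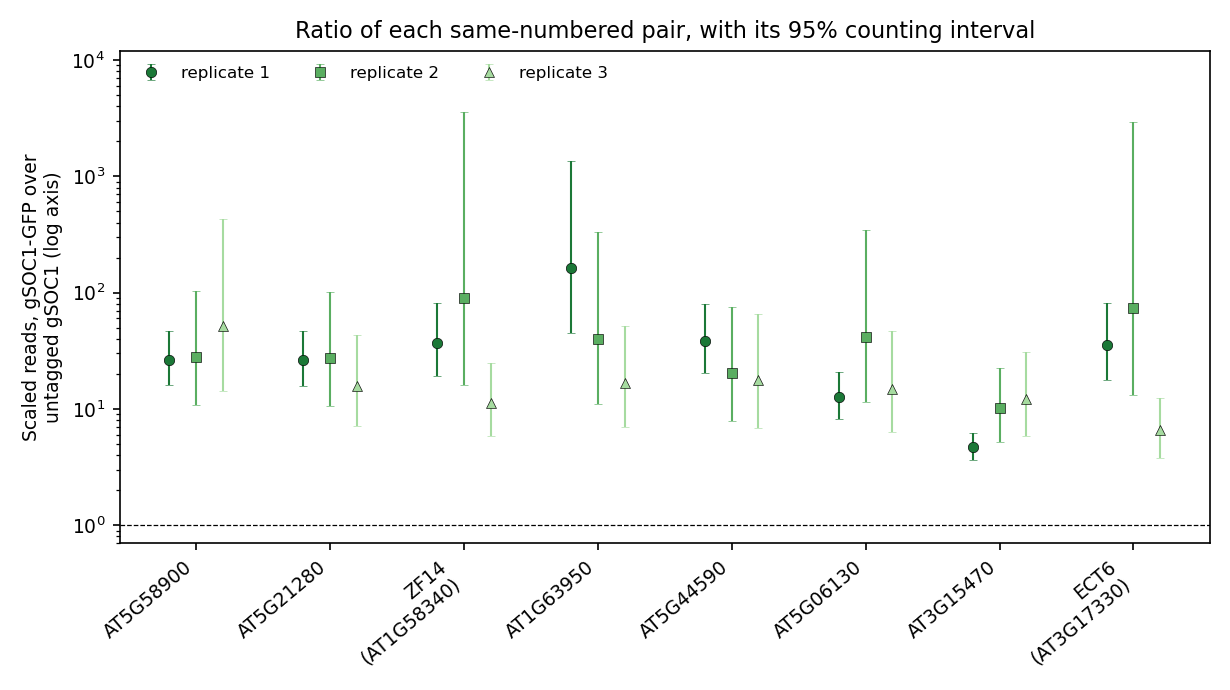
Ratio of scaled reads, gSOC1-GFP over untagged gSOC1 (log axis), in each same-numbered pair at the 8 called regions, with exact 95% counting intervals; the dashed line marks equal scaled reads. The widest intervals belong to pairs with 1 or 2 untagged reads and the narrowest to AT3G15470 in replicate 1 (3.66 to 6.14); as these reads chose the loci, the distance from the line is no test.

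The untagged counts limited the precision of these ratios. In 18 of the 24 pairs the untagged library held fewer than 10 reads, and in 6 it held from 1 to 3. For ZF14 in replicate 2, with 307 gSOC1-GFP reads and 1 untagged read, the scaled ratio was 89.8 with an exact 95% counting interval of 16.01 to 3560. ECT6 in the same replicate had 252 reads in the gSOC1-GFP library and 1 in the untagged library, a ratio of 73.8 (13.1 to 2925). Such pairs bound the ratio from below and hardly from above. Where the untagged counts were larger the intervals were narrower, as in replicate 1 of AT3G15470 (4.71, from 3.66 to 6.14) and of AT5G06130 (12.7, from 8.26 to 20.8). Within ECT6 the interval of replicate 3 (6.53, from 3.76 to 12.4) lay below those of replicates 1 (35.1, from 17.7 to 81.7) and 2. Whether its pairs differed by more than counting error was not tested. The intervals cover counting error only. They treat each read as an independent molecule, which reads amplified by PCR are not, so they may be too narrow.

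**Figure D3:**
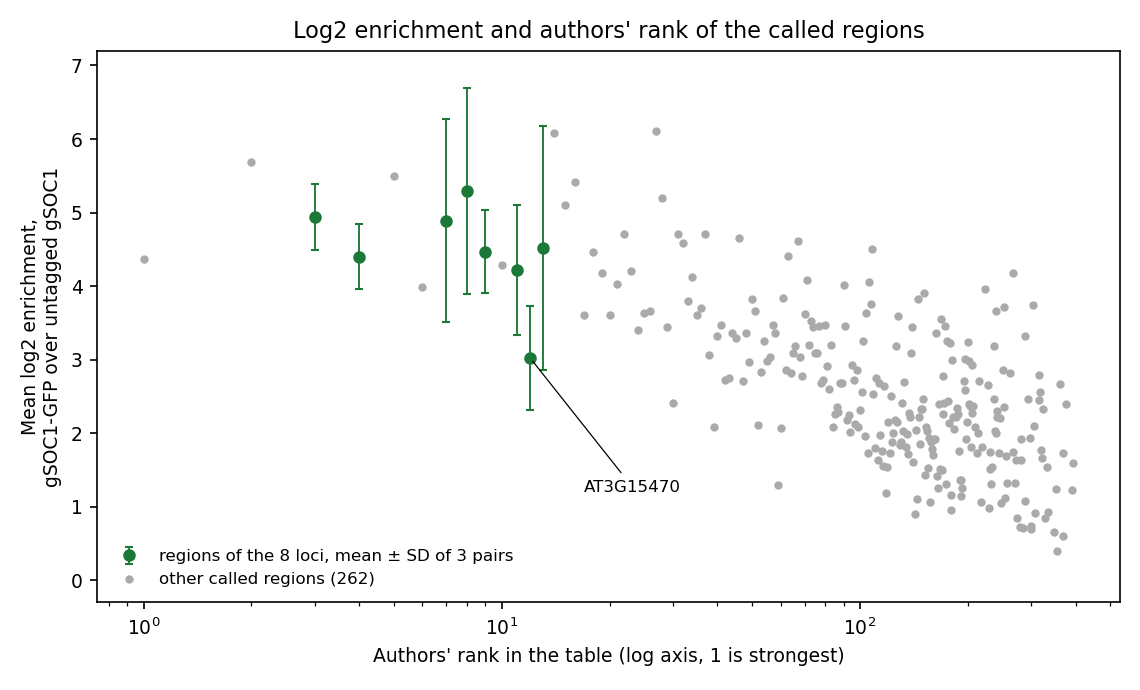
Mean log2 enrichment of gSOC1-GFP over untagged gSOC1 (3 pairs) against the authors' rank (log axis) for the 270 called regions; green points are the 8 loci with SD bars. The 8 hold ranks 3 to 13, with AT3G15470 lowest among them at 3.02, and some regions of later rank, such as rank 14 at 6.08, lie above them.

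Among the strongest regions, the authors' rank and the mean log2 enrichment gave different orders. Rank 13, the last of the 8 (ECT6, 4.51 ± 1.66), was followed by ranks 14 to 16, which were not among the 8. Their mean log2 enrichments were higher, at 6.08 ± 1.38, 5.11 ± 1.72 and 5.41 ± 3.16 (SD, n = 3 pairs). With SDs this wide, and an untagged count of 0 or 1 in each of them, that order is uncertain. Over all called regions the mean mostly fell toward later ranks. Rank 14 lay upstream of MIR156e, rank 15 over SPA2 and rank 16 over AT1G19330. Within ranks 1 to 13, the regions left out were those of SOC1 (rank 1, AGL20 in the gene table), ATG18C (2), LEJ2 (5), RS40 and CBF1 (6) and TON1A and SMZ (10). ATG18C, an autophagy gene, is not best known as a flowering gene either, so the 8 are a choice among the strongest regions and not the full set outside the flowering genes.

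**Figure D4:**
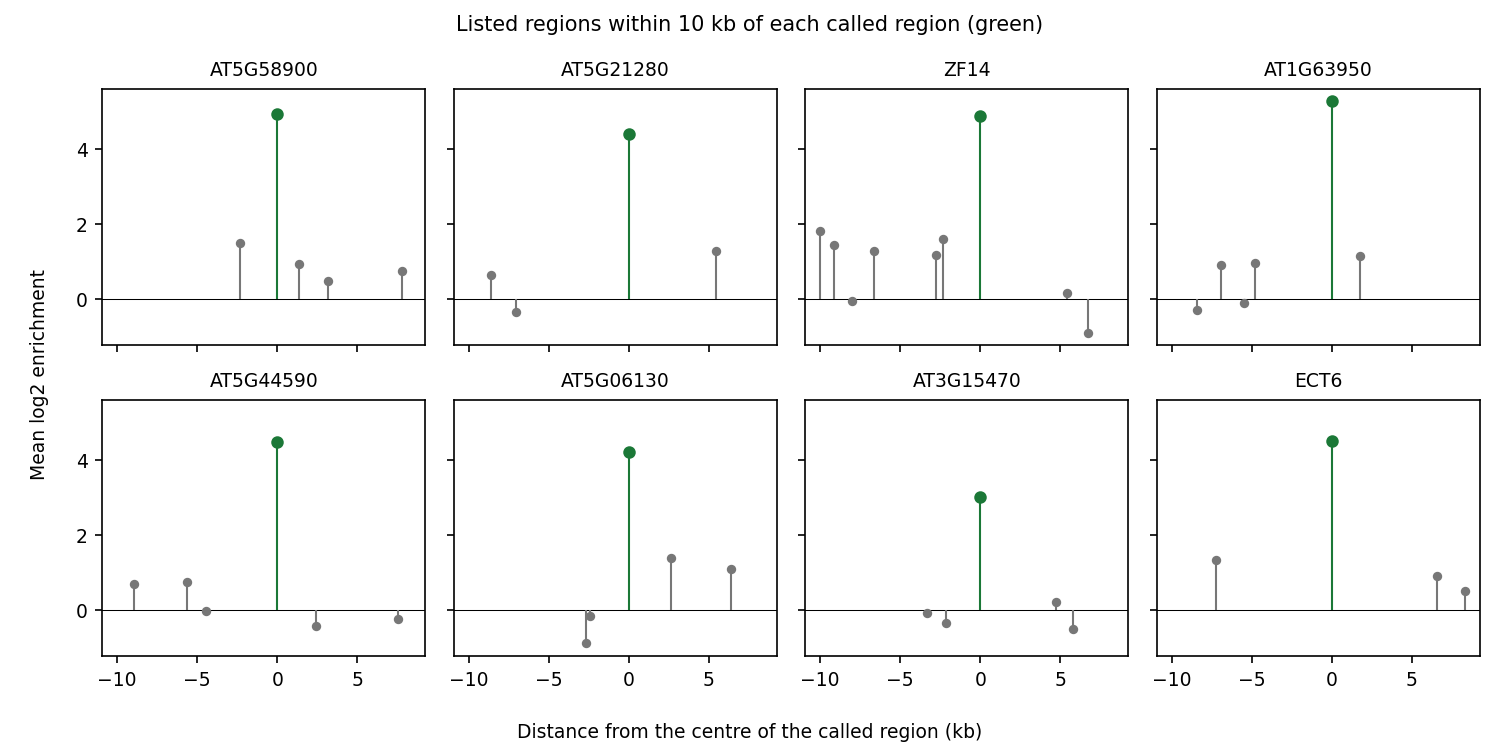
Mean log2 enrichment (3 pairs) of listed regions within 10 kb of the centre of each called region (green), by distance in kb along the chromosome. The 36 neighbouring regions (grey), of which 0 were called, have values between -0.91 and 1.81, below all 8 called regions. As the 8 were chosen on this contrast, the difference is no test.

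Within 10 kb of the 8 centres 36 other regions were listed, from 3 around AT5G21280 and ECT6 to 8 around ZF14. Their median log2 enrichment was 0.66, against 0.31 for all listed regions, and 0 of 36 were called, near the 1.12% of all listed regions. The nearest of them was 1345 bp away at AT5G58900 and 6555 bp away at ECT6. Summed over the libraries of a group, the called region held 95.3% of the gSOC1-GFP reads listed within 10 kb at ECT6, against 59.5% of the untagged reads. At ZF14 it held 79.5% of the gSOC1-GFP reads and 14.7% of the untagged reads, and at AT1G63950 85.7% and 7.09%. These sums are unscaled and cover reads in listed regions only. Since the 8 regions were chosen for high gSOC1-GFP over untagged reads, a larger gSOC1-GFP share follows from the choice and is no test. For the 10 listed regions of the loci that were not called, spread over 6 of the loci, the median log2 enrichment was 1.03. Of these 10, 4 had an untagged count of 0 in at least 1 library, and the scaled reads of the groups were apart at 1, the region 865 bp downstream of AT1G63950, a share near the 8.48% of all listed regions.

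Of the 8 called regions 4 were assigned to further genes, which numbered 5: AT3G17340, MDAR6, SNX1, AT5G06125 and AT3G15460. Among the other called regions 56.1% were assigned to more than 1 gene, and among all listed regions 60.0%. No 2 of the 8 loci shared a region or a neighbour. The shared region was upstream of AT3G15460 and AT5G06125, and for MDAR6, SNX1 and AT3G17340 it was downstream. The reads do not say which of the genes beside a region a bound factor would act on.

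Relatives of the 2 named loci were not called. Of the 11 other YTH-domain genes (ECT1 to ECT5, ECT7 to ECT11 and CPSF30), 10 had a listed region and 0 a called one. The 21 regions of these relatives had log2 enrichments from -0.60 to 1.17 with a median of 0.14, against 4.51 at ECT6 and a median of 0.31 over all listed regions. The highest, 556 bp downstream of ECT4, had 47, 11 and 14 reads in gSOC1-GFP libraries and 27, 0 and 4 in untagged libraries. Its log2 enrichment was 1.17 ± 2.33 (SD, n = 3 pairs) and was above 0 in only 1 of the 3 pairs. ECT2, whose protein is a well studied reader of methylated mRNA, had a region 3 bp upstream at 0.14 ± 0.30 (SD, n = 3 pairs). Of the 2 named MATE relatives of ZF14, ADS1 and AT5G52050 (DTX50), 0 had a called region, and their 5 listed regions had log2 enrichments from -0.22 to 1.76. With 1.75% of genes called, 0 of 12 genes with a listed region is close to the background and says nothing particular of these families.

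The listed regions outside the 8 loci whose scaled reads over the 6 libraries were nearest to the mean profile of the 8 were all called regions of the authors' top 25. Likeness was the Euclidean distance between log2 scaled reads, with the read level left in. Regions near the 8 thus had to share their high gSOC1-GFP reads, on which the authors' rank rests. The nearest, at a distance of 0.85, was the region of rank 10, 2357 bp upstream of TON1A, a gene of microtubule organisation, and also upstream of the flowering repressor SMZ. It held 821, 287 and 251 reads in gSOC1-GFP libraries and 20, 3 and 4 in untagged libraries. The next, at 1.38 to 1.45, lay beside AT5G41071 and GDPD2 (rank 25), over AT3G14220 (rank 21), upstream of AT1G24265 and SEP3 (rank 17) and beside the tRNA gene AT5G59385 (rank 20). The 8 themselves were 0.70 (AT5G21280) to 2.86 (AT3G15470) from their own mean.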

How the data were processed

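The authors deposited unnormalized read counts for each region and library, as their column descriptions state. The authors' FDR was a Benjamini-Hochberg q-value per replicate number, and their log2 rank product and rank score combined the 3, as the deposited descriptions state. Per the submitters' processing notes, coordinates are TAIR10. For the aligner and region caller, the sources used here give no name. The base from which starts count (0 or 1) is not stated either, and ends were computed from start and length. Gene positions relative to a region's centre, strands and transcript parts are the authors'. A gene was assigned where the centre overlapped it, and the nearest gene on each side where the centre lay up to 3000 bp upstream or 1000 bp downstream of it. Names came from the RefSeq gene table, which held all 8 loci.

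Counts were scaled to TMM effective library sizes (edgeR 4.0.16, R 4.3.3) over 24032 regions, adding a prior count of 1 (larger for deeper libraries), and log2 enrichment is the mean ± SD of 3 same-numbered pairs. RPM values have no prior count. No p-value was computed, since the loci were chosen on this contrast. edgeR fits and DESeq2 1.42.0 size factors gave alternative values only, and the calculation was checked on simulated data. That check placed known folds only in regions with more untagged reads in sum than AT1G63950 had. The median listed region had a log2 enrichment of 0.31, to which other values compare. Named genes were the 8 loci, every gene sharing their called regions, 5 regions of nearest profile and relatives with a called region, and further genes were named after their values were seen. Of 31 genes in the relatives' lists 16, with no fitting name in the gene table, were left out. Members and lists were chosen with earlier results of these data known.

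Deviations from group means of same-numbered libraries correlated at 0.498, 0.123 and 0.139 for replicates 1, 2 and 3, above the bound of 0.1, and the authors' FDR compares libraries by the same pairs. Replicates 2 and 3 barely passed, and gSOC1-GFP replicate 3 correlated at 0.131 with untagged replicate 2. Replicate 1 had the most listed reads in both groups, and whether depth gave its correlation was not tested. The labels do not say whether replicates were grown separately, so the SD may be technical.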

Additional observations from a re-analysis of the deposited data

How the results depend on the processing

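The median log2 enrichment of the 8 called regions, 4.49, was 4.56 in the edgeR fit with the replicate block and 4.56 without the block. With a prior count of 10 it was 3.79, a move larger than the SD between replicates, and the cause lies in the construction, since a larger prior weighs most on low untagged counts. It ranged from 4.32 to 4.84 when 1 replicate was left out, and from 4.37 to 4.56 with a prior count of 0.5, library totals, DESeq2 size factors or scaling factors from regions with at least 10 reads. The prior count of 10 and the edgeR fits lowered the median of all listed regions from 0.31 to 0.06, 0.07 (with the block) and 0.05 (without it). Of the 80 values of single loci under these settings 77 moved by less than the SD of their locus. The 3 others were AT5G58900 (4.16), AT5G21280 (3.82) and AT5G44590 (3.76) with the prior count of 10, and these loci have small SDs. The same prior count moved AT1G63950 (5.29 to 4.11), ZF14 (4.89 to 3.99) and ECT6 (4.51 to 3.63) by more, within their wider SDs. The enrichment stayed above 0 in all 80. Leaving out 1 replicate moved the fold by over 1.5 times in 5 of 24 cases, at ZF14, AT1G63950 and ECT6. AT3G15470 was the lowest of the 8 under each setting run, and AT1G63950 the highest except with a prior count of 10 and without replicate 1, where it was AT5G58900. The 8 regions stayed called, and the other 10 not called, at an FDR of 0.01 or 0.1 and without each replicate in turn, where 0.757% to 1.95% of all regions were called. Of the 18 regions assigned to the loci, 15 were left with an upstream window of 1000 bp and 14 with no downstream window. Both called members of the families, ZF14 and ECT6, stayed called. The search for CArG boxes in promoters was not run, since no sequence table was used here.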
